A study of Homo sapiens with 16 samples.

Results

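The 10 genes FAS, FASLG, FADD, CASP8, CASP10, CFLAR, TNFRSF10A, TNFRSF10B, TNFRSF1A and TNFRSF21 of the extrinsic apoptosis pathway were followed on the arrays. They were taken as every non-control probe that carries 1 of these 10 names, which gave 20 probes on 56 spots out of 30982 distinct names on the array. The RNA came from Caco-2 cells, a human colorectal adenocarcinoma line used as a model of the intestinal epithelium and grown here without differentiation. For 6 h the cells were kept in minimum essential medium with 1% fetal calf serum (MED-CTL) or were given 1 of 3 stimulants dissolved in it. PT-G was gliadin, the wheat protein fraction behind celiac disease, digested with pepsin and trypsin. PT was the blank digest, in which the same enzymes had no substrate, and p31-43 was a synthetic gliadin peptide at 150 µg/ml. The study states that both enzymes were heat-inactivated after digestion, which it checked by an activity assay with a trypsin substrate. Each condition had 4 one-color arrays, and the cells of all 4 conditions were detached with trypsin-EDTA before RNA extraction. The 4 experiments used 1 cell line a few passages apart, and the doses of the digests are not given in the sources used here.

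Death receptors are surface proteins of the tumor necrosis factor receptor family that carry a death domain on the inside of the cell. When a ligand such as FASLG or TRAIL binds, the receptor recruits the adaptor FADD, which brings in the initiator caspases CASP8 and CASP10. CFLAR competes with these caspases in the same complex and so limits their activation. In the gut these receptors take part in the turnover of epithelial cells and in killing by lymphocytes.

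Both digests raised the TRAIL receptor TNFRSF10B and 1 probe of CASP10, and under p31-43 no member passed the test. TNFRSF10A and 1 probe of TNFRSF21 passed for PT-G alone. In both of these, however, every PT array also lay above every MED-CTL array, and PT-G did not differ from PT at the threshold. At a nominal p under 0.01 in limma, the threshold of the study's methods, PT-G changed 5 of the 20 member probes and PT changed 4. For PT-G all 5 were higher, in TNFRSF10B (both probes), TNFRSF10A, TNFRSF21 and CASP10. For PT, 3 were higher, in TNFRSF10B (both probes) and CASP10, and 1 probe of CASP8 was lower. Over all 40982 probes tested, 3.44% passed for PT-G and 3.64% for PT, with 1.91% higher for PT-G, and 1.8% higher and 1.84% lower for PT. No member passed for p31-43, where 0.388% of all probes did, or between PT-G and PT, where 0.0903% did. At an unadjusted p under 0.05 in limma these counts were 0 for p31-43, where 2.15% of all probes passed, and 1 between PT-G and PT, where 0.781% did. The comparisons with MED-CTL share the 4 MED-CTL arrays. After Benjamini-Hochberg adjustment over all probes, 1 member probe stayed under 0.05 for PT-G (0.944% of all probes) and 1 for PT (0.82%). In RNA from whole cultures, more cells with a transcript and more transcript per cell cannot be told apart. FAS and FASLG were not well above background on any array.

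By the date their files carry, the arrays fell into 4 runs, each with 1 array of every condition, and runs 1 and 2 lay months before runs 3 and 4. Array values below are normalized log2 intensities in the order of runs 1 to 4, in which MED-CTL replicates 2 and 1 belong to runs 1 and 2 and all other replicates to the run of their number. Between 27660 and 33947 spots per array were well above background. Deviations from the group means correlated across probes between MED-CTL and PT-G arrays of the same run at 0.628 to 0.857. Between MED-CTL and PT arrays they ran from −0.00542 to 0.620. The PT array of run 3 and the p31-43 array of run 4 lay on another slide than the other arrays of their run. With the run as a block in the model, 7 member probes passed for PT-G and 8 for PT, where 9.16% and 10.3% of all probes did. With the slide as a block the counts were 8 for PT-G and 10 for PT, beside 12.2% and 10.6% of all probes, and 1 for p31-43, beside 3.73%. With the replicate number as a block they were 6 and 8, beside 7.59% and 8.49%. All 9 epithelial markers examined were well above background on all 16 arrays. Of these only KRT20 passed the test, higher in PT-G by 0.63 and in PT by 0.50. The 9 differences ran from −0.72 (CDX2) to 0.63 for PT-G and from −0.64 (CDX2) to 0.50 for PT. Summed log2 levels of the 9 were 121.6 to 122.3 in the 4 conditions. Of 5 blood cell markers, 2 were above background on all arrays (CD3E and CD14), while PTPRC and MS4A1 were so on none, and their summed log2 levels were 34.5 to 34.7 in the 4 conditions. All 5 fibroblast and endothelial markers were above background, with summed log2 levels of 40.7 to 41.2 and differences between −0.45 and 0.51 for PT-G. None of these 10 passed the test for PT-G or PT, and their part in the results was not tested.

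TNFRSF10B, the TRAIL receptor also called DR5, gave the largest difference among the members for PT-G. Its brighter probe, A_24_P218265, read 12.52, 12.58, 13.42 and 13.03 on the MED-CTL arrays. On the PT-G arrays it read 13.54, 13.65, 14.06 and 13.71, and on the PT arrays 13.79, 13.62, 13.65 and 13.49. Every array of either digest was above every MED-CTL array. PT-G exceeded MED-CTL by 0.85 on the log2 scale, or 1.81-fold (SE 0.17, n = 4 arrays each, limma adjusted p = 0.0329). PT exceeded it by 0.75, or 1.68-fold (SE 0.17, limma adjusted p = 0.0677). The p31-43 arrays, at 12.84, 12.94, 13.16 and 12.86, lay within the MED-CTL range, and the difference of 0.06 had a 95% interval from −0.31 to 0.43.

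The second TNFRSF10B probe, A_23_P169030, lies about 2432 bases away on chromosome 8 in the array's annotation and showed the same direction. It read 10.27, 10.39, 10.24 and 10.16 in MED-CTL, 10.86, 10.90, 10.67 and 10.56 in PT-G, and 10.72, 10.80, 10.82 and 10.61 in PT. Again no digest array overlapped with MED-CTL. The differences were 0.48 for PT-G (SE 0.11, limma adjusted p = 0.0617) and 0.47 for PT (SE 0.11, limma adjusted p = 0.0720). Within single runs this probe was 0.40 to 0.58 higher in PT-G and 0.40 to 0.57 higher in PT. Both TNFRSF10B probes passed in every alternative tried, for both digests.

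TNFRSF10A, the other signalling TRAIL receptor (DR4), has 1 probe. Its values were 10.53, 10.23, 10.67 and 10.28 in MED-CTL, 11.03, 11.13, 11.19 and 10.81 in PT-G, 11.31, 10.95, 10.72 and 10.77 in PT, and 10.27, 10.29, 10.93 and 9.89 under p31-43. All 8 digest arrays lay above all 4 MED-CTL arrays, while p31-43 spanned the MED-CTL range. The difference was 0.61 for PT-G (SE 0.19, limma adjusted p = 0.229) and 0.51 for PT (SE 0.19, limma adjusted p = 0.371), so that only PT-G passed the nominal threshold. In run 3 the PT array exceeded its MED-CTL array by 0.06, against 0.49 to 0.78 in the other runs. With the run as a block the PT difference passed (limma adjusted p = 0.0828). The PT-G call was kept when MED-CTL replicate 3 or PT-G replicate 4 was left out and lost without any 1 of the other 6 arrays, while the difference stayed between 0.55 and 0.69.

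**Figure D1:**
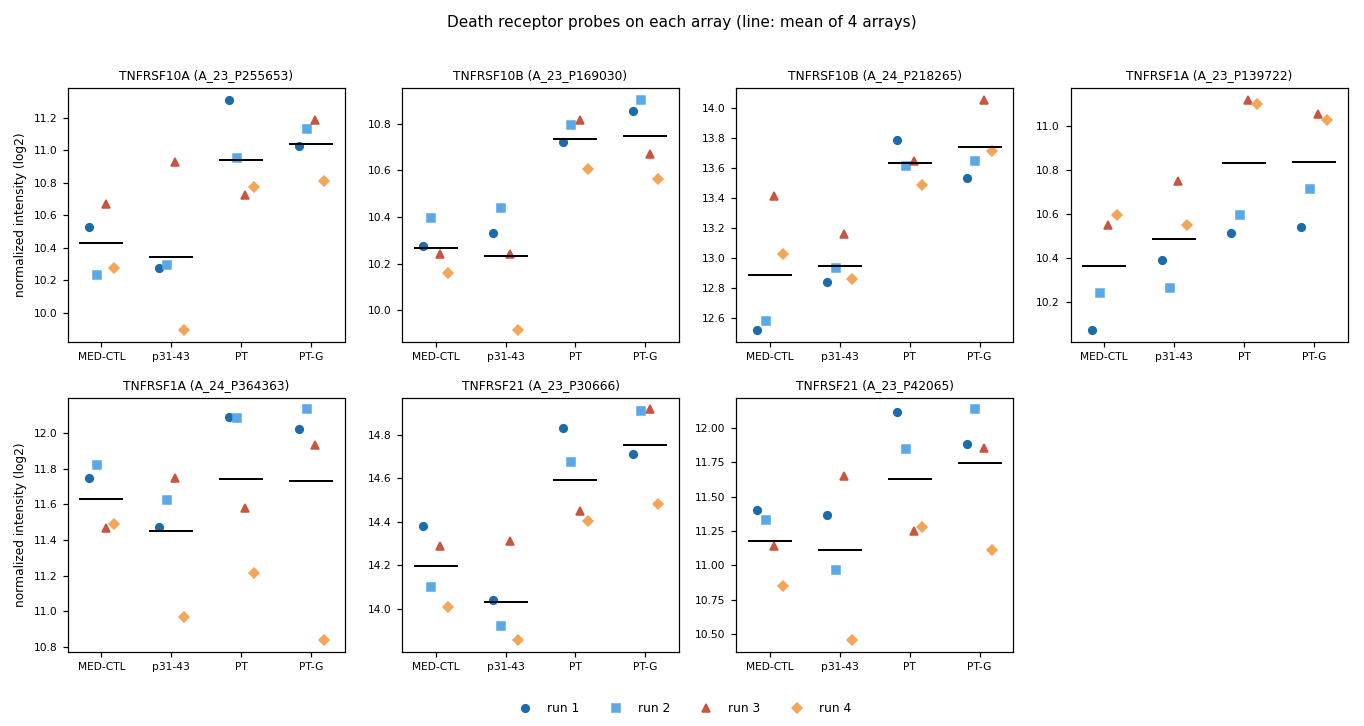
Normalized log2 intensity (vertical axis) of the 7 probes of TNFRSF10A, TNFRSF10B, TNFRSF1A and TNFRSF21 on each of the 16 arrays, by condition. Symbols mark runs 1 to 4 and black lines the mean of 4 arrays. Arrays of PT-G and of PT lie above all MED-CTL arrays in 4 of the 7 panels, and p31-43 arrays overlap with MED-CTL in every panel.

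TNFRSF21, or DR6, is a death-domain receptor of the same family without a role in TRAIL binding. Its brighter probe, A_23_P30666, read 14.38, 14.10, 14.29 and 14.01 in MED-CTL. In PT-G it read 14.71, 14.91, 14.92 and 14.48, and in PT 14.83, 14.67, 14.45 and 14.41, again without overlap with MED-CTL. PT-G was higher by 0.56 (SE 0.13, limma adjusted p = 0.0788) and PT by 0.40 (SE 0.13, limma adjusted p = 0.286), the latter just outside the threshold. With the run as a block PT passed (limma adjusted p = 0.0446). The second probe, A_23_P42065, differed by 0.57 for PT-G and 0.45 for PT, with a larger spread (SE 0.28 for both, limma adjusted p = 0.676 and 0.736). It was above its own run's MED-CTL array in all 4 runs for both digests, and with the run as a block it passed for PT-G (limma adjusted p = 0.109).

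TNFRSF1A, the main receptor of tumor necrosis factor, was measured by 2 probes that did not give the same picture. A_23_P139722, printed on 10 spots, read 10.07, 10.24, 10.55 and 10.60 in MED-CTL, 10.54, 10.71, 11.05 and 11.03 in PT-G, and 10.51, 10.60, 11.12 and 11.10 in PT. Within each run the digest array was higher, by 0.43 to 0.50 in PT-G and by 0.36 to 0.57 in PT, while late arrays were higher than early ones in every condition. The difference of 0.47 for each digest (SE 0.18) missed the threshold without a block (limma adjusted p = 0.411 for PT-G and 0.379 for PT). With the run as a block it passed (limma adjusted p = 0.00262 and 0.00283). A_24_P364363, about 748 bases away and annotated over 215 bases rather than 60, differed by 0.10 for PT-G (SE 0.28) and 0.11 for PT (SE 0.28). In run 4 it was lower in PT-G than in MED-CTL by −0.65 and in PT by −0.27, against positive differences in runs 1 to 3, and it passed in none of the alternatives.

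**Figure D2:**
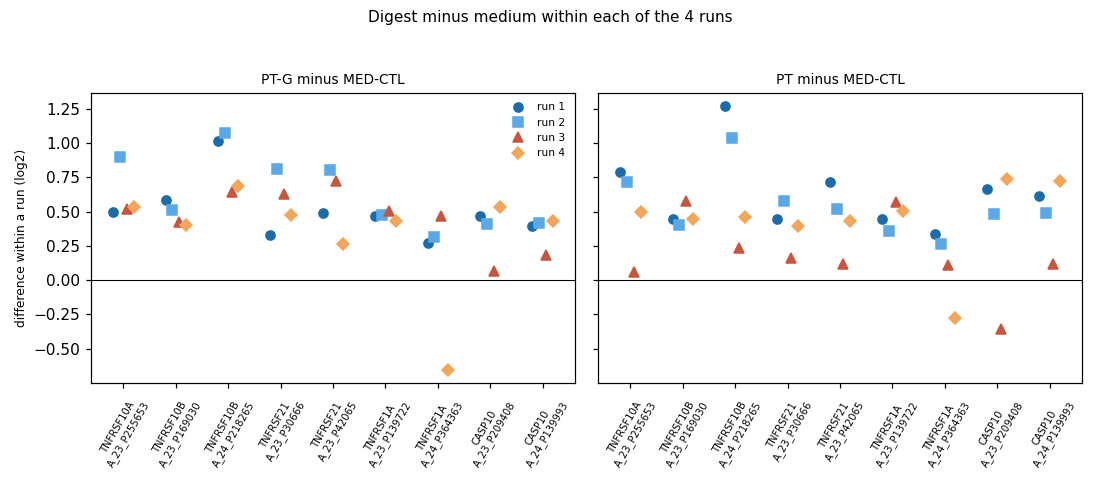
Difference in normalized log2 intensity between a digest array and the MED-CTL array of the same run (vertical axis) for the 7 receptor probes and 2 CASP10 probes, with 1 symbol per run; PT-G on the left and PT on the right. The 2 TNFRSF10B probes, the 10-spot TNFRSF1A probe, TNFRSF10A and both TNFRSF21 probes are above 0 in all 4 runs of both panels, and the PT differences of run 3 are the lowest for 6 of the 9 probes.

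Over the 7 receptor probes above background, the median difference was 0.56 for PT-G and 0.47 for PT, with 7 of 7 positive in both. For p31-43 it was −0.07, with 2 of 7 positive. The median over all probes above background was −0.01 for PT-G, −0.01 for PT and 0.000643 for p31-43. Among the 20 member probes, 4 had every PT-G array above every MED-CTL array and 5 had every PT array above, shares to be read against 2.01% and 2.36% of all probes.

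For 2 of the receptor genes with a probe that passed for both digests with the run as a block, the sequence before the annotated start is shown, as the stretch in which regulatory factors bind. The 250 bases upstream are from RefSeq (GRCh38.p14, 5′ to 3′ on the gene's strand, which is the minus strand for both). Capitals mark matches, on either strand, to the letters of a GC box (GGGCGG) or an E-box (CACGTG). Matches were also sought for AP-1 (TGANTCA), the cyclic AMP element (TGACGTCA), EGR factors (GCGNGGGCG) and NF-kB. The matches found do not overlap.
TNFRSF21, chr6:47309906-47310155: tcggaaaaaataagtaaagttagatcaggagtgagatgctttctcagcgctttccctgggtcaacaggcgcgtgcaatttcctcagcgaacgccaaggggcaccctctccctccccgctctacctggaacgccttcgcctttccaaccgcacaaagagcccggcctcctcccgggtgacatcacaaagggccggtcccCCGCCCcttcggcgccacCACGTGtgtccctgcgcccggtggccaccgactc
TNFRSF1A, chr12:6342077-6342326: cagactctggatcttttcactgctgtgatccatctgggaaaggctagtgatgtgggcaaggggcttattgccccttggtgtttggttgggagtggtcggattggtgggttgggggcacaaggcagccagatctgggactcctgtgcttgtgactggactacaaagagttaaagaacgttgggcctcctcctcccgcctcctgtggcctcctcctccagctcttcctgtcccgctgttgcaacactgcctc

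The TNFRSF21 window held 1 GC box, which 42.6% of 35116 RefSeq promoter windows of the same length hold, and 1 E-box, which 6.34% hold. The TNFRSF1A window held none of the 6 motifs. The letters of AP-1 occur in 6.57% of all windows, those of the cyclic AMP element in 1.65%, of EGR in 8.41% and of NF-kB in 9.96%. The windows were 62% and 56.8% G or C, beside a median of 58% over all promoters. Windows of 7 of the 10 members were examined. CASP10 had no entry among the promoters used, and the windows of TNFRSF10A and TNFRSF10B are not reported here.

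FAS and its ligand FASLG form the classical death receptor pair, through which cytotoxic lymphocytes kill epithelial cells. The FAS probe, on 10 spots, was not well above background on any of the 16 arrays, and its normalized level stayed between 5.89 and 6.02. The 2 FASLG probes, 1 of them on 10 spots, were also not well above background on any array, at 5.82 to 6.02 and 5.81 to 6.01. For these 3 probes no fold is given, because neither group of any comparison holds a measured level. A change in FAS or FASLG mRNA below the detection limit of these probes was not detectable.

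FADD, the adaptor between receptor and caspase, had 2 probes above background on all 16 arrays and passed in no comparison. A_23_P86917 read 15.26, 15.25, 15.45 and 15.34 in MED-CTL, 14.97, 15.07, 15.64 and 15.34 in PT-G, and 14.99, 15.05, 15.45 and 15.31 in PT. The groups overlapped, with a difference of −0.07 for PT-G (95% interval −0.41 to 0.27, limma adjusted p = 1.00) and −0.12 for PT (−0.47 to 0.22, limma adjusted p = 0.887). The second probe differed by −0.23 and −0.17, with intervals from −0.73 to 0.27 and from −0.67 to 0.33.

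CASP10, an initiator caspase related to CASP8, was higher under both digests in 1 of its 3 probes. A_24_P139993 read 8.66, 8.75, 9.07 and 8.53 in MED-CTL, 9.28, 9.24, 9.19 and 9.25 in PT, and 9.06, 9.17, 9.25 and 8.96 in PT-G. All 4 PT arrays were above all MED-CTL arrays, and 2 of the 4 PT-G arrays lay below the highest MED-CTL array, that of run 3. PT exceeded MED-CTL by 0.49, or 1.40-fold (SE 0.10, limma adjusted p = 0.0447), and PT-G by 0.36, or 1.28-fold (SE 0.10, limma adjusted p = 0.172). A_23_P209408, about 137 bases away, differed by 0.38 for PT (SE 0.18, limma adjusted p = 0.541) and 0.37 for PT-G (SE 0.18, limma adjusted p = 0.642). Its MED-CTL array of run 3 read 9.43, against 8.43 to 8.84 in the other runs. Without that array (MED-CTL replicate 3) its differences became 0.57 and 0.56, and both passed. This was the only 1 of 8 leave-outs to pass for either digest. The lowest leave-out differences were 0.24 for PT and 0.22 for PT-G. Of the 11 other alternatives it passed in 1 for each digest, the slide block. The third probe, A_24_P3045, lies about 26785 bases from A_23_P209408 and differed by −0.08 for PT and −0.12 for PT-G (SE 0.18 for both, limma adjusted p = 0.945 and 1.00). The PT-G call of A_24_P139993 was lost without MED-CTL replicate 2 or 4 or PT-G replicate 2 or 3, with median scaling and in a fit of the 2 groups alone, while the difference stayed between 0.28 and 0.46. The PT call was kept in every alternative tried.

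CASP8, the initiator caspase that death receptors activate most directly, was lower under PT in 1 of 3 probes. A_24_P157087 read 10.42, 10.91, 11.48 and 11.10 in MED-CTL, 10.34, 10.65, 10.21 and 10.20 in PT, and 10.50, 10.71, 11.21 and 10.89 in PT-G. Against MED-CTL it fell by 0.63 in PT (SE 0.21, limma adjusted p = 0.266), and differed by −0.15 in PT-G (SE 0.21, 95% interval −0.60 to 0.29). The PT difference was −0.08 and −0.26 in runs 1 and 2 and −1.27 and −0.90 in runs 3 and 4. A difference of this PT effect between the pairs of runs, of −0.91, did not pass the threshold in the interaction test (limma adjusted p = 0.998). The call was lost with the processed signal at the 75th percentile, with median scaling and in a fit of the 2 groups alone. It was also lost without any 1 of 6 of the 8 arrays, all but MED-CTL replicate 2 and PT replicate 2, with a difference of −0.46 without MED-CTL replicate 3. With a term for the slide the difference was −0.48.

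Both other CASP8 probes varied more between arrays than any other member. A_24_P148499 read 7.95, 8.16, 9.22 and 7.49 in MED-CTL, 7.63, 7.81, 7.28 and 6.76 in PT, 7.79, 8.03, 9.20 and 7.02 in PT-G, and 7.93, 7.74, 8.77 and 7.33 under p31-43. The 3 high values of run 3 come from 1 slide, and the PT array of run 3 lay on another. The PT difference of −0.83 (SE 0.46, limma adjusted p = 0.676) became −0.45 with the slide as a block (limma adjusted p = 0.0272). A_23_P209389, on 10 spots and about 354 bases from A_24_P157087, read between 11.78 and 12.23 on all 8 arrays of runs 1 and 2. On the 8 arrays of runs 3 and 4 it spread from 10.08 to 12.86. Within an array its 10 spots had an SD of 0.06 to 0.19. It passed in no comparison, with −0.52 for PT-G, −0.70 for PT and −0.73 for p31-43 (SE 0.55 for each).

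CFLAR, the inhibitor that competes with CASP8 for FADD, was measured by 2 probes above background on all arrays and passed in no comparison. A_23_P209394 read 10.55, 10.22, 10.48 and 10.27 in MED-CTL, 10.64, 10.53, 10.37 and 10.15 in PT-G, and 10.57, 10.30, 10.19 and 10.18 in PT. The difference was 0.04 for PT-G (95% interval −0.22 to 0.31) and −0.07 for PT (−0.33 to 0.19). A_24_P120115 differed by −0.01 and −0.03 with wider intervals, from −0.59 to 0.57 and from −0.61 to 0.55.

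**Figure D3:**
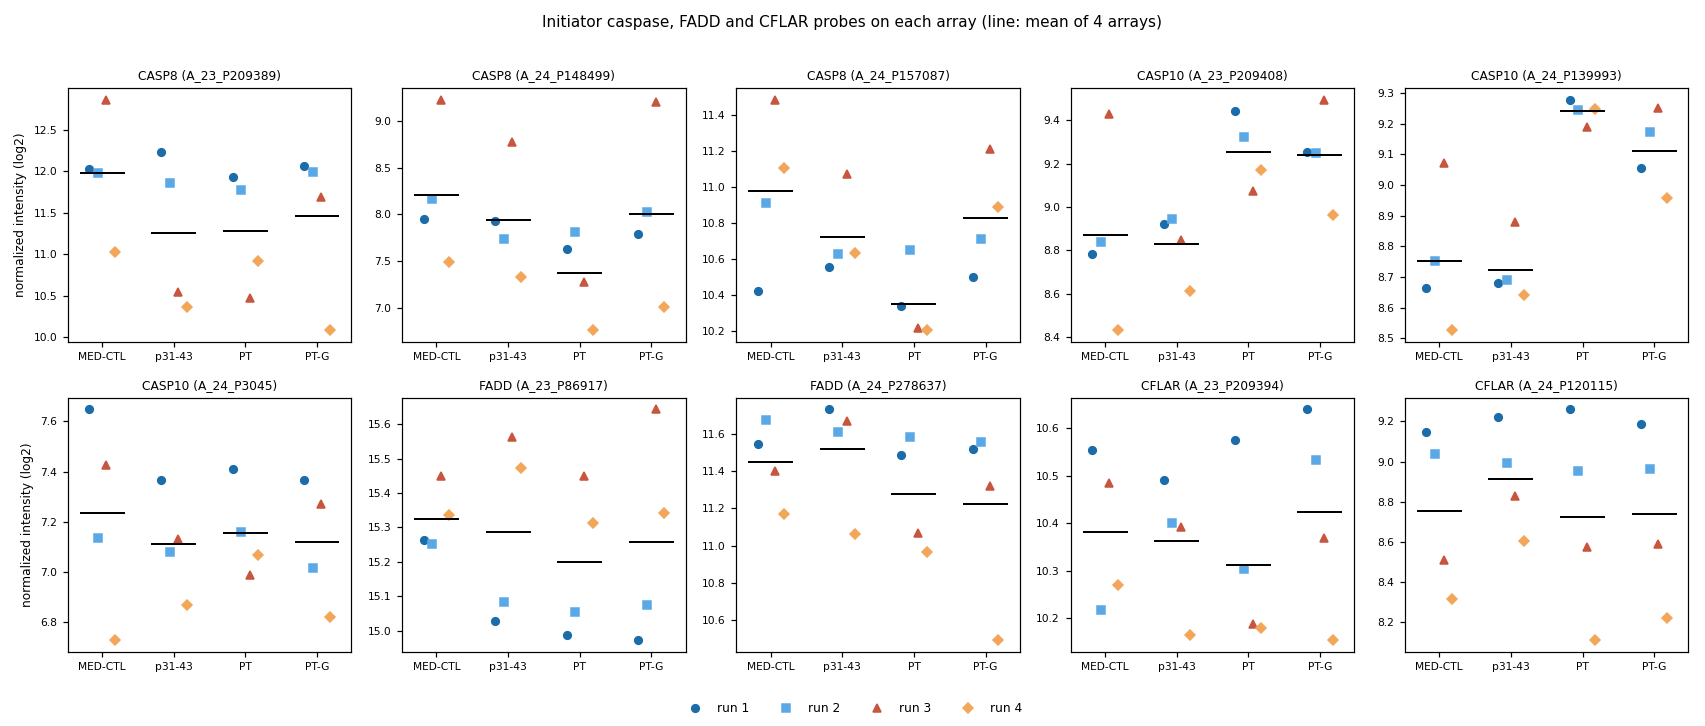
Normalized log2 intensity (vertical axis) of the 10 probes of CASP8, CASP10, FADD and CFLAR on each array, by condition. Symbols mark runs 1 to 4 and black lines the mean of 4 arrays; the CASP8 values of runs 3 and 4 spread over 2.78 log2 units in A_23_P209389, and the 4 PT arrays stand above MED-CTL in CASP10 A_24_P139993.

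**Figure D4:**
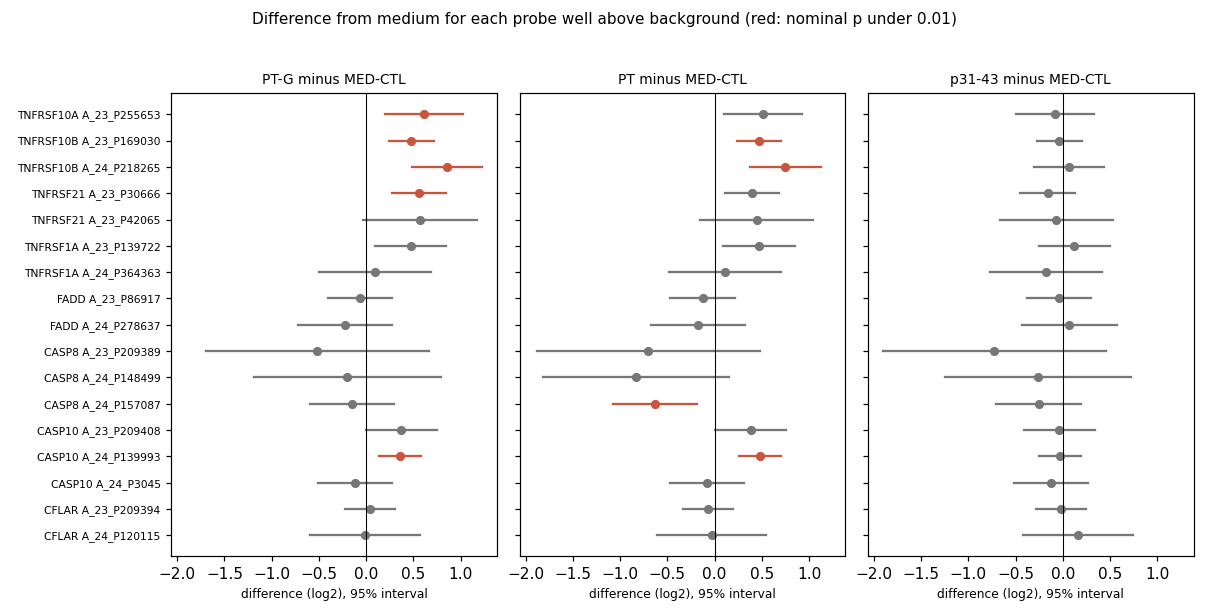
Difference from MED-CTL on the log2 scale (horizontal axis, point) with its 95% interval from limma (line) for the 17 member probes above background, for PT-G, PT and p31-43. Red marks a nominal p under 0.01, which 5 probes reached for PT-G, 4 for PT and 0 for p31-43.

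Whether the digests differed from the peptide was tested directly. PT-G exceeded p31-43 in 5 member probes and so did PT, at the same threshold that 3.73% and 3.15% of all probes passed. These were the same 5 probes, in TNFRSF10A, TNFRSF10B (2 probes), TNFRSF21 and CASP10, and both comparisons share the 4 p31-43 arrays. The difference was 0.79 for TNFRSF10B A_24_P218265 between PT-G and p31-43 (SE 0.17, limma adjusted p = 0.0425) and 0.69 between PT and p31-43 (SE 0.17, limma adjusted p = 0.111). For TNFRSF21 A_23_P30666 it was 0.72 for PT-G (SE 0.13, limma adjusted p = 0.0184) and 0.56 for PT (SE 0.13, limma adjusted p = 0.0895). TNFRSF10A differed by 0.69 and 0.59 (SE 0.19 for both, limma adjusted p = 0.1325 and 0.282), and CASP10 A_24_P139993 by 0.39 and 0.52 (SE 0.10 for both, limma adjusted p = 0.114 and 0.03455).

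Gliadin in the digest was addressed by PT-G against PT. The median difference over the 17 probes above background was 0.06, and over all probes above background it was 0.01. For TNFRSF10B A_24_P218265 the interval of the difference was −0.27 to 0.47, for TNFRSF10A −0.31 to 0.51 and for TNFRSF21 A_23_P30666 −0.12 to 0.45. The lowest p among the members was that of CASP8 A_24_P157087, 0.48 higher in PT-G than in PT (SE 0.21, limma adjusted p = 1.00). With the slide as a block 1 probe passed, CASP10 A_24_P139993, at −0.21 (limma adjusted p = 1.00), beside 0.364% of all probes.

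Of 31 other genes of the pathway, listed by role, all were on the array and 25 were well above background on all 16 arrays in at least 1 probe. None of the 5 ligands (TNFSF10, TNF, LTA, TNFSF12, TNFSF15) was above background on all 16. In its more often detected probe, TNFSF12 was so on 15 arrays, TNFSF15 on 14, TNF on 10 and LTA on 2. The probe of TNFSF10, which encodes TRAIL, was not well above background on any array. Among the 7 other receptors and decoys, 1 passed the test, higher with both digests. This was TNFRSF11B or osteoprotegerin, a soluble decoy that binds TRAIL and RANKL. Its probe A_24_P192485 read 12.64 to 12.77 in MED-CTL, 13.21 to 13.76 in PT-G and 13.20 to 13.76 in PT. That is 0.84 higher in each digest (SE 0.14, limma adjusted p = 0.00962 for PT-G and 0.00916 for PT), with a difference of 0.92 and 0.86 in its other probe. TNFRSF1B (0.69 for PT-G, 0.64 for PT), TNFRSF12A (0.63, 0.50) and TNFRSF10D (0.51, 0.55) were also higher without passing. With the run as a block TNFRSF1B and TNFRSF12A passed for both digests and TNFRSF10D for PT. TNFRSF6B differed by 0.07 and 0.12, and TNFRSF25 by −0.02 and −0.25. TNFRSF10C was well above background on 3 arrays. RIPK1, the kinase at the TNF receptor complex, was lower in PT by −0.35 (SE 0.10, limma adjusted p = 0.191) and differed by −0.11 in PT-G (SE 0.10). CYLD, a deubiquitinase of that complex, was lower in PT by −0.56 in A_24_P48078 (SE 0.17, limma adjusted p = 0.194), with −0.48 in PT-G (limma adjusted p = 0.327), and its dimmer probe differed by −0.25 in PT. CASP6, an executioner caspase, was higher under p31-43 by 0.33 (SE 0.11, limma adjusted p = 1.00). Over the 38 probes of the list, 2 were higher and 0 lower for PT-G, where 3.44% of all probes passed and 1.91% were higher. For PT 2 were higher and 2 lower, beside 1.8% and 1.84% of all probes. For p31-43 1 was higher, where 0.388% of all probes passed. The 2 higher probes for each digest are those of TNFRSF11B. With the run as a block 8 of the 38 passed for PT-G and 13 for PT, while a slide term gave 11 and 10, against the shares of all probes given above for these blocks.

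For the 3 members whose brightest probe passed against MED-CTL, the named genes of most similar course over the 16 arrays were sought among 12507 other genes above background, with 1 probe each. TNFRSF10A was closest to TNFRSF21 (Pearson r = 0.945), and SPRED2 (0.899) was also among its 3 closest genes. TNFRSF21 was closest to MGC26963 (0.954), TNFRSF10A (0.945) and LRRC8A (0.939). TNFRSF10B was closest to GEM (0.949), TMEM22 (0.933) and MTL5 (0.929). The 16 arrays share 4 runs and 4 conditions, so that these correlations describe conditions and runs together.

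Several members also differed between the early and the late runs. With condition as covariate, FADD A_23_P86917 was 0.36 higher in the late pair of runs (SE 0.06, limma adjusted p = 0.000762) and the 10-spot TNFRSF1A probe 0.43 higher (SE 0.05, limma adjusted p = 5.97e-05). CFLAR A_24_P120115 was lower by −0.63 (SE 0.09, limma adjusted p = 0.000310), FADD A_24_P278637 by −0.45 (SE 0.12, limma adjusted p = 0.0119) and TNFRSF1A A_24_P364363 by −0.47 (SE 0.15, limma adjusted p = 0.0384). For FADD and TNFRSF1A, therefore, the 2 probes of the gene moved in opposite directions. CASP8 A_23_P209389 fell by 0.99 (SE 0.29, limma adjusted p = 0.0246) and TNFRSF10B A_23_P169030 by 0.19 (SE 0.06, limma adjusted p = 0.0328). These 7 of the 20 probes had a nominal p under 0.01, where 24.2% of all probes did.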

How the data were processed

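Of 16 one-color arrays, 4 per condition, the authors deposited the linear intensity per spot from Agilent Feature Extraction 9.5.3.1, not normalized between arrays. They also deposited log2 values, which equal the log2 median foreground intensity after quantile normalization over all spots to within 5e-09. Marks for controls, outliers and signal well above background were used as deposited. Here 1639 control spots of 45015 per array were left out, the log2 median intensity of the other 43376 was quantile-normalized without background correction, spots marked as outliers were dropped (34 member spots over the 16 arrays) and the spots of a probe averaged. Of 41000 probes, 40982 with at least 3 unmarked arrays in every group entered limma 3.58.1 (R 4.3.3) as 1 model of 4 conditions with moderated 2-sided tests and Benjamini-Hochberg adjustment within each comparison. No member spot was saturated. Depth here means signal over background, and precision is limited by the number of arrays. p-values measure the spread between 4 experiments on 1 cell line. The fit was tested on simulated data.

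Where 1 probe stands for a gene it is the brightest. Other pathway genes are named if a nominal p under 0.01 was reached against MED-CTL. Outside this rule the 5 ligands are named, as those of the receptors, and the 7 other receptors and decoys. The members and lists were chosen with earlier results of these data known. Run and slide were read from the deposited files. Alternatives were the deposited log2 values, the background-subtracted signal at the 75th percentile, normexp (offset 50), median scaling, a filter on dim probes, marked spots kept, blocks for replicate number, run, slide or pair of runs, a fit of only the groups compared, and leaving out each array. Probe coordinates are left out, since no build is named for them. Promoter windows are RefSeq sequences of GRCh38.p14. Pathway genes that are not named enter the counts alone, and 1 of the 3 genes most similar to TNFRSF10A is not reported here.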

Additional observations from a re-analysis of the deposited data

Results flagged for a closer look

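Of 80 sets of 4 arrays (20 probes in 4 conditions), 2 held an array far from the other 3 by Dixon's test, for which chance alone flags about 1 set in 20. CASP8 A_24_P157087 read 11.07 on p31-43 replicate 3, against 10.56 to 10.63 on the other p31-43 arrays. TNFRSF1A A_24_P364363 read 10.84 on PT-G replicate 4, against 11.93 to 12.13.

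Of 40 tests of whether a digest effect on a member probe differed between the pairs of runs, 1 had a nominal p under 0.01 in limma. The PT effect on TNFRSF10B A_24_P218265 was 1.15 in the early and 0.35 in the late pair of runs, a change of −0.80 (limma adjusted p = 0.798). The PT-G effect on that probe was 1.04 and 0.66, and the second TNFRSF10B probe had a PT effect of 0.43 and 0.51.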

How the results depend on the processing

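The count of member probes passing, 5 for PT-G and 4 for PT, moved by over 1.5 times under some blocks and, for PT-G, in some leave-outs. With the slide as a block it was 8 for PT-G, 10 for PT, 1 for p31-43 (CASP8 A_24_P148499) and 1 for PT-G against PT. With the run as a block it was 8 for PT, and with the replicate block also 8. For PT-G the run block gave 7 and the replicate block 6, moves of under 1.5 times. The share of all probes that passed was also higher under these blocks. Deviations of same-number arrays correlated with those of MED-CTL at 0.395 to 0.857 for PT-G, 0.262 to 0.707 for p31-43 and −0.00542 to 0.411 for PT. Same-run arrays of PT had the same lowest value, while those of PT-G correlated at 0.628 to 0.857 and those of p31-43 at 0.538 to 0.707. Neither was taken as a pairing in the main values. A model without a block can miss a difference that is steady within runs, as for TNFRSF1A A_23_P139722. Leaving out 1 array gave 3 to 6 for PT-G, 3 without MED-CTL replicate 2 or 4 or PT-G replicate 2 or 3. For PT it gave 3 to 5, for p31-43 0 to 0 and for PT-G against PT 0 to 0. The deposited values, normexp, the dim filter and marked spots kept left all 4 counts as they were. Of 1131 alternative differences of single probes from MED-CTL, 1014 kept direction and side of the threshold, 21 lost a call, 30 gained one, 66 changed sign without a call before or after, and none with a call reversed. Calls for TNFRSF10B held in all 19 alternatives for each digest, as did TNFRSF21 A_23_P30666 for PT-G. The cause of these shifts was not tested. FAS and FASLG had no signal over background, which limits any statement on them.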
